A study of Mus musculus with 16 samples.

Results

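Macroautophagy genes, 38 in all, were followed through fasting in 8 mouse tissues. Their rows were found in the deposited count table by gene symbol, and each of the 38 matched 1 of the 55385 genes. They cover 7 roles in the pathway, namely the initiation complex (5 genes), lipid transfer and membrane supply (6), the phosphatidylinositol 3-kinase complex (5), the conjugation machinery (10), the Atg8 proteins (5), the cargo receptors (5) and transcription factors that act on the pathway (2). The measurement was short-read RNA-Seq of heart, lung, liver, kidney, spleen, muscle and the white and brown adipose tissue of male C57BL/6 mice, acquired at 12 weeks of age. One group of 3 mice ate freely (fed) and the other went without food for 24 h (fasting). No transgene, deletion or drug was involved. Equal parts of a tissue from the 3 mice of a group were pooled before RNA was extracted, which gave 1 library for each tissue and treatment and 16 libraries in all, so no value within a tissue has a replicate error.

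Autophagy is the route by which a cell encloses part of its own cytoplasm in a double membrane, the autophagosome, and delivers it to the lysosome for breakdown. The Ulk kinase complex starts the process, a phosphatidylinositol 3-kinase marks the membrane, lipid transfer proteins feed its growth, and 2 ubiquitin-like conjugation systems attach Atg8 proteins (the LC3 and GABARAP proteins) to it. Cargo receptors bind the attached Atg8 proteins and bring in ubiquitinated protein or mitochondria. Fasting is a classical trigger, and in muscle and liver FoxO and TFEB factors are known to act on autophagy genes. The counts measure transcript levels only and not the flow of material to the lysosome.

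Library totals lay between 14245178 and 36069968 counts, and no member had fewer than 99 counts in any library. In every tissue, the marker list of that tissue stood highest in its own 2 libraries. Lists for other cell types differed between the fed and the fasting library of some tissues. The summed pancreatic acinar list was at 426 CPM (counts scaled to a common library total) in the fed and 0.647 CPM in the fasting spleen library, and at 65.6 and 185 CPM in liver. The B cell list was at 346 and 82.7 CPM in white adipose, a shift carried by Ighm. The part of such cells in the results below was not tested. In pooled bulk tissue, fewer cells of a type and less RNA per cell cannot be told apart.

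Across the 8 tissues, 7 of the 38 members (18.4%) rose with fasting and none fell. They were the cargo receptors Bnip3, Bnip3l, Sqstm1 and Nbr1, the Atg8 genes Gabarapl1 and Map1lc3b, and Wipi1, whose product binds the phosphoinositide of the growing membrane. Their fitted changes ran from 0.33 for Nbr1 to 1.14 for Bnip3 on the log2 scale. Each of the 7 was higher in the fasting than in the fed library of all 8 tissues. These calls came from edgeR's quasi-likelihood test on all 16 libraries, with tissue as a block and an adjusted p-value under 0.05 over all genes. The same test called 4.39% of the 17296 genes tested, 2.31% as rises and 2.08% as falls. At an unadjusted p-value under 0.05 it passed 14 members, against 23.8% of all genes. The median change was 0.14 over the 38 members and -0.01 over all genes tested. The replicates of this test are tissues, and since every tissue was taken from the same 2 sets of mice they do not stand for separate animals.

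How far a call held with 1 tissue left out differed among the 7 genes. Over these 8 fits edgeR called 0.891% to 4.21% of all genes, against 4.39% with no tissue left out. With each tissue left out in turn, Bnip3 and Bnip3l passed every time, with edgeR adjusted p-values of 0.0118 to 0.0447 and 0.0171 to 0.0368. Map1lc3b missed the threshold only without heart, at an edgeR adjusted p of 0.0526. Wipi1 missed it only without brown adipose, at 0.0532 in the same test. Gabarapl1 passed only without liver or without spleen, with edgeR adjusted p-values from 0.0413 to 0.113 over the 8 fits. Sqstm1 and Nbr1 passed only without spleen, with ranges of 0.0343 to 0.104 and 0.0318 to 0.0807. The log2 fold changes stayed above 0 in all of these fits and moved little, for example 0.59 to 0.80 for Sqstm1. Without both adipose tissues, Bnip3, Bnip3l and Wipi1 were called, in a fit that called 0.757% of all genes. Without liver, white adipose and spleen together, 5 of the 7 were called, Nbr1 and Bnip3l being the exceptions. These are tissues with a shift in marker lists given above, and the fit without them called 2.74% of all genes.

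**Figure D1:**
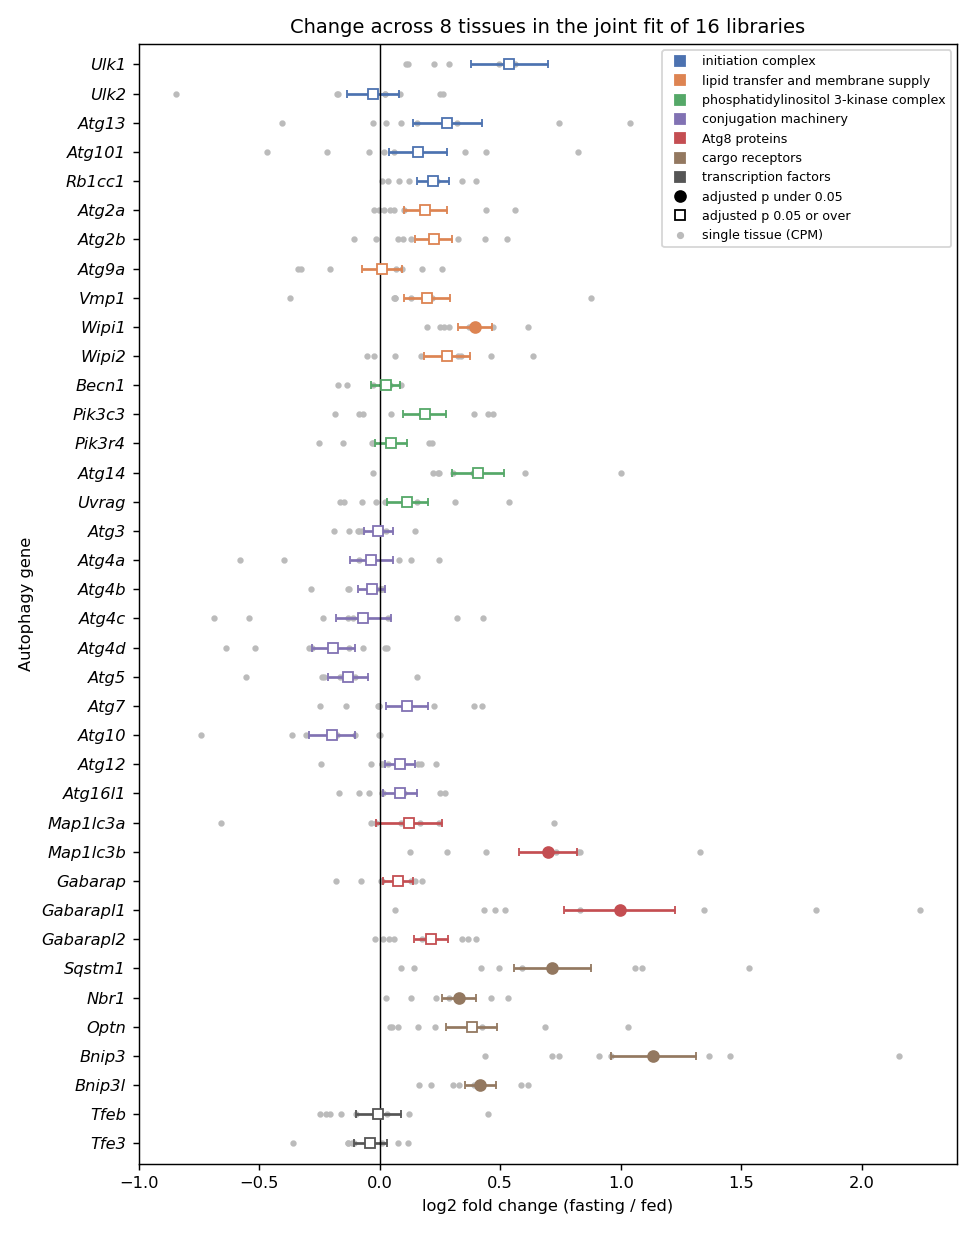
Log2 fold change between fasting and fed conditions (x axis) for each of the 38 autophagy genes (y axis, coloured by role). Large symbols give the estimate of the joint fit of 16 libraries with bars of 1 SE, filled circles pass an adjusted p of 0.05, and grey dots are the changes of the single tissues in CPM. The 7 filled circles all lie to the right of 0, between 0.33 and 1.14, while the genes of the conjugation machinery sit close to 0.

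Within single tissues, 50 of the 304 pairs of member and tissue were called, 41 as rises and 9 as falls. The call followed the study's own criteria, a log2 fold change over 0.5 either way with an unadjusted p under 0.01 in a two-sided Fisher's exact test. It sets 1 library against another and says nothing of the spread between mice. In muscle 31.6% of members were called, against 13.8% of all genes with a count and 24.2% of genes at 1 CPM or more. The share was 21.1% in liver (14.0% and 23.2%), 23.7% in white adipose (19.1% and 29.1%), 23.7% in brown adipose (13.0% and 20.9%) and 21.1% in heart (10.1% and 16.7%). It was 2.63% in spleen (3.93% and 5.95%), 5.26% in kidney (6.69% and 10.7%) and 2.63% in lung (9.18% and 14.3%). Next to genes at 1 CPM or more, the share of members called was lower in liver, white adipose, spleen, kidney and lung and higher in muscle, brown adipose and heart, a description that was not tested.

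Split by direction on library totals, the share of rises was above its background in muscle, brown adipose, heart and liver, and the share of falls was below it in all 8 tissues but was 0 or 1 member in 5 of them. Of the members, 26.3% rose in muscle, where 7.8% of genes at 1 CPM or more did. The share of rises was 21.1% against 8.68% in brown adipose, 15.8% against 7.01% in heart and 13.2% against 7.34% in liver. White adipose, with 21.1% against 19.8%, stood near its background, as did spleen (2.63% against 3.62%), kidney (5.26% against 4.48%) and lung (2.63% against 4.23%). Falls took 5.26% of members in muscle and 7.89% in liver, against 16.4% and 15.8% of genes at 1 CPM or more. They took 2.63% in each adipose tissue, against 9.23% in white and 12.2% in brown, and 5.26% against 9.65% in heart. No member fell in spleen, kidney or lung, where 2.33%, 6.23% and 10.1% of such genes did. These shares depend on the scaling. With TMM factors (edgeR's correction for library make-up), the share of members that rose was 34.2% in muscle against 10.4% of genes at 1 CPM or more, 23.7% against 10.3% in liver, 21.1% against 9.28% in brown adipose and 21.1% against 8.05% in heart. It was 13.2% against 17.0% in white adipose, 5.26% against 4.05% in spleen, 4 of 38 members against 5.08% in kidney and 7.89% against 5.54% in lung. Falls with TMM factors took 5.26% of members in muscle against 12.4% of such genes, and 2.63% in liver against 10.8%. They took 2.63% in white adipose against 12.6%, 2.63% in brown adipose against 11.7% and 2.63% in heart against 8.21%. No member fell in spleen, kidney or lung, where 2.04%, 5.28% and 7.93% of such genes did.

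Stretches of promoter are shown for the 4 members with the largest called changes, Bnip3, Gabarapl1, Sqstm1 and Map1lc3b, since genes that move together invite a look at the sequence before their starts. The sequences are those of RefSeq on GRCm38.p6, read 5′ to 3′ on the gene's strand. Each window opens 250 bases before the RefSeq start and ends at the last base before the outermost annotated start of the gene in the deposited table. Capitals mark matches to the motifs searched. The windows are chr7:138909520-138909756 on the - strand for Bnip3, chr6:129532942-129533159 on the + strand for Gabarapl1, chr11:50210828-50211070 on the - strand for Sqstm1 and chr8:121590188-121590360 on the + strand for Map1lc3b.
Bnip3: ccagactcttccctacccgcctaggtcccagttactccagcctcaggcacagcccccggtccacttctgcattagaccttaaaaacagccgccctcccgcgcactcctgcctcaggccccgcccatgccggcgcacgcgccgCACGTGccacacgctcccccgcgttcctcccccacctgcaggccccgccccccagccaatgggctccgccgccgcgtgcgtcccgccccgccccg
Gabarapl1: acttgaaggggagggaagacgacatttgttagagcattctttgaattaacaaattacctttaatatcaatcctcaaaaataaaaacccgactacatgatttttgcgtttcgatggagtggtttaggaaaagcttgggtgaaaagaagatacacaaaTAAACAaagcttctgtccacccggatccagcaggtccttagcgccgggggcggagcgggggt
Sqstm1: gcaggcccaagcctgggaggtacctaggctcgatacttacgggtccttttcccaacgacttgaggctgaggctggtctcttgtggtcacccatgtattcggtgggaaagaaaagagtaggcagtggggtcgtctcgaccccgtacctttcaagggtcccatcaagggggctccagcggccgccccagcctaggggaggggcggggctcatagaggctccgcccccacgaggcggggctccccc
Map1lc3b: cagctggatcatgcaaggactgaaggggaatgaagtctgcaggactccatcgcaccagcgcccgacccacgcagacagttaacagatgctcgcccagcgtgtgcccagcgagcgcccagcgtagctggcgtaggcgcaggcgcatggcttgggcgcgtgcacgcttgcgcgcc
The Bnip3 stretch holds the E-box CACGTG, the palindrome bound by basic helix-loop-helix factors such as TFEB and TFE3, 108 to 103 bases before the RefSeq start. The Gabarapl1 stretch holds TAAACA, the short core of the FoxO site, 94 to 89 bases before the RefSeq start. Both distances count from that start, which lies downstream of the end of the printed stretch. The Sqstm1 and Map1lc3b stretches hold no match to any of the motifs.

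All 31 members with an entry in the promoter table were searched on both strands over the whole 250 bases. CACGTG was in 4 of them (12.9%), namely Atg3, Atg5, Atg7 and Bnip3, and in 6.02% of all 32851 promoters. TAAACA was in 2 members (6.45%), Atg4a and Gabarapl1, against 12% of all promoters. The longer FoxO site GTAAACA, which contains the short core, was in no member and in 3.17% of promoters. TGACNNNGC, the core of the antioxidant response element, was in 3 members (9.68%), Atg13, Ulk2 and Vmp1, against 10.2%. The ATF4 element TGATGCAAT was in no member and in 0.167% of promoters. The median GC content of the 250 bases was 59.6% for members and 52.4% over all promoters, and its part in these shares was not tested. A match describes the letters and not a bound site. Of the 4 members with an E-box, only Bnip3 was called across tissues.

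Bnip3 (ENSMUSG00000078566.8, chr7:138890836-138909519) encodes a mitochondrial outer membrane protein that recruits Atg8 proteins for mitophagy. Its fed and fasting CPM were 188 and 364 in muscle, 110.4 and 284 in liver, 412 and 675 in white adipose, 331 and 908 in brown adipose, 145 and 646 in heart, 10.2 and 13.8 in spleen, 128 and 214 in kidney, and 41.3 and 77.5 in lung. The fasting library was the higher of the pair in all 8 tissues, and the lowest values under either condition were those of spleen and lung. Across tissues the log2 fold change was 1.14 (SE 0.18, edgeR adjusted p = 0.0131). The change ran from 0.44 in spleen to 2.15 in heart. Bnip3 was also the member with the largest rise in liver, brown adipose, heart, kidney and lung.

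Its relative Bnip3l (ENSMUSG00000022051.15, chr14:66985239-67008877), also known as Nix, has the same kind of role and is known for clearing mitochondria from maturing red cells. Fed and fasting CPM of Bnip3l were 52.9 and 69.3 in muscle, 75.2 and 92.9 in liver, 132 and 177 in white adipose, 105 and 161 in brown adipose, 63.3 and 79.6 in heart, 127 and 191 in spleen, 104 and 121 in kidney, and 166 and 186 in lung. All 8 shifts were upward, from 0.16 in lung to 0.62 in brown adipose. The fit across tissues gave a log2 fold change of 0.42 (SE 0.07, edgeR adjusted p = 0.0131), an SE well under that of Bnip3. In spleen, where Bnip3l had the largest rise of any member, the erythroid marker list summed to 3405 CPM in the fed and 8307 CPM in the fasting library. The part of red cell precursors in that value was not tested. Per deposited gene length, Bnip3 stood above Bnip3l in 6 tissues and below it in spleen and lung. The ratio of their RPKM (CPM divided by the gene's length in kilobases) in fed libraries ran from 0.136 in spleen to 6.04 in muscle, and in heart it went from 3.90 in the fed to 13.8 in the fasting library.

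Sqstm1 (ENSMUSG00000015837.15, chr11:50199366-50210827), which encodes p62, the receptor that binds ubiquitinated cargo and is itself degraded with it, was among the most abundant members. Its fed and fasting CPM were 449.5 and 957 in muscle, 387 and 517 in liver, 287 and 432 in white adipose, 187 and 391 in brown adipose, 329 and 953 in heart, 177 and 188 in spleen, 524 and 739 in kidney, and 312 and 345 in lung. Muscle, brown adipose and heart showed the largest shifts, with log2 fold changes of 1.09, 1.06 and 1.53, while the spleen libraries lay 0.09 apart. Across tissues the change was 0.72 (SE 0.16, edgeR adjusted p = 0.0381). Nbr1 (ENSMUSG00000017119.19, chr11:101552149-101581951), a receptor that acts beside p62, had fed and fasting CPM of 130.1 and 179 in muscle, 292 and 364 in liver, 197 and 285 in white adipose, 206 and 257 in brown adipose, 213 and 260.0 in heart, 168 and 171 in spleen, 349 and 411 in kidney, and 216 and 236 in lung. Every pair was ordered the same way, with changes from 0.03 in spleen to 0.53 in white adipose. Its fitted change was 0.33 (SE 0.07, edgeR adjusted p = 0.0338).

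Optn, the fifth receptor, encodes optineurin, which acts in mitophagy and in clearing bacteria, and it missed the threshold. Its fed and fasting CPM were 91.3 and 107 in muscle, 116 and 187 in liver, 53.3 and 109 in white adipose, 158 and 212 in brown adipose, 137 and 153 in heart, 22.6 and 23.9 in spleen, 23.4 and 24.2 in kidney, and 29.1 and 29.9 in lung. Liver and white adipose stood out with log2 fold changes of 0.69 and 1.03, the latter being the largest change of any member in white adipose. Spleen, kidney and lung were all low in Optn and lay within 0.08 of no change. The fit across tissues gave 0.38 (SE 0.11) with an edgeR adjusted p of 0.0687, and DESeq2's Wald test gave an adjusted p of 0.0194, in a test that called 11.3% of the genes to which it gave one.

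**Figure D2:**
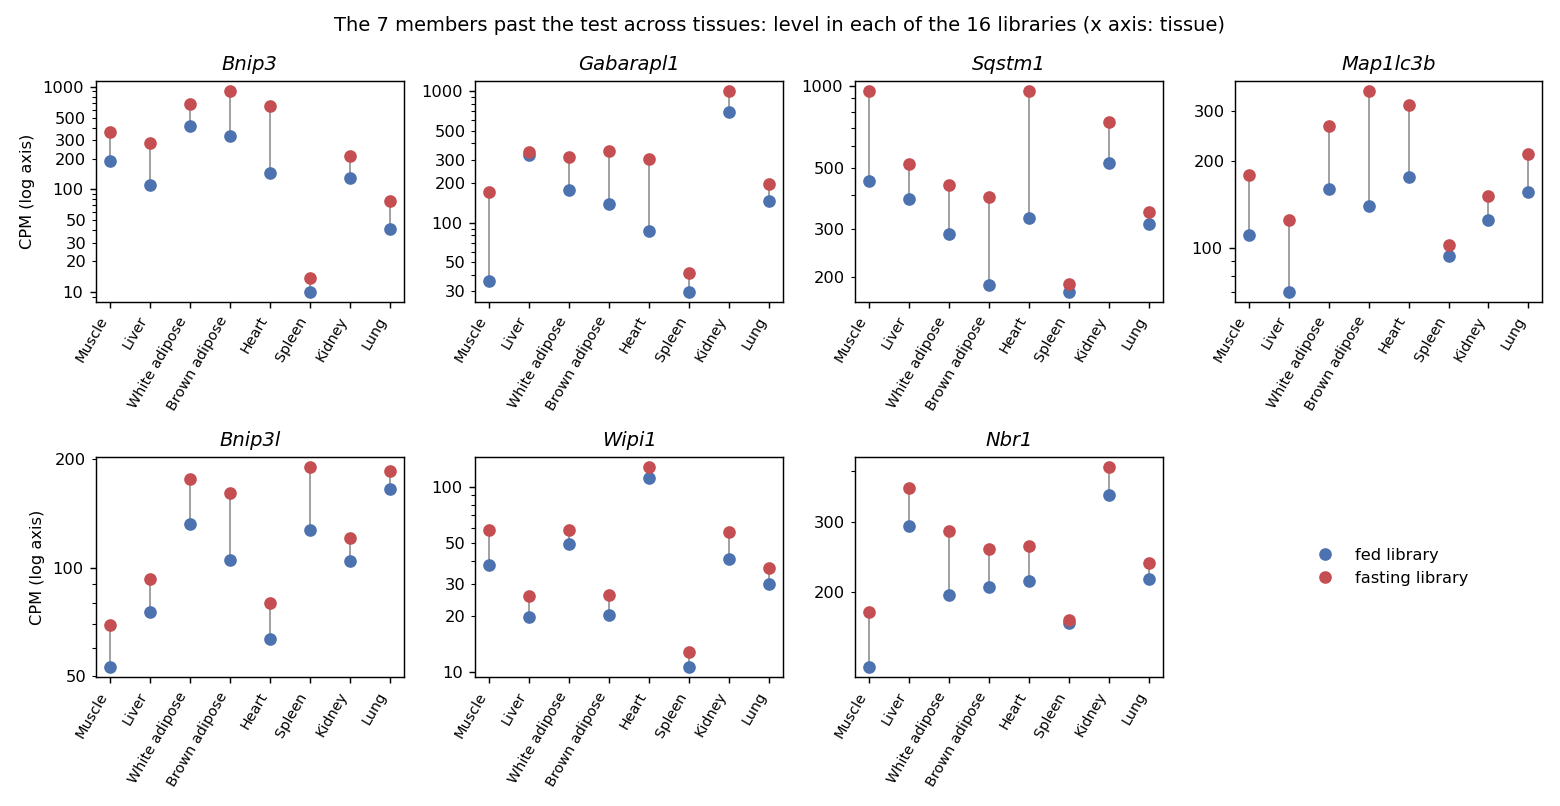
CPM (log axis, y) of the 7 called members in the fed (blue) and fasting (red) library of each tissue (x axis), 1 panel per gene and 1 library per point. The red point lies above the blue one in all 56 pairs, and the gap is widest for Gabarapl1 in muscle and Bnip3 in heart.

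Of the 5 Atg8 genes, 2 rose across tissues. Gabarapl1 (ENSMUSG00000030161.8, chr6:129533160-129542346) encodes GEC1, a protein of the GABARAP branch. Its fed and fasting CPM were 36.1 and 171 in muscle, 327 and 342 in liver, 177.5 and 316 in white adipose, 139 and 353 in brown adipose, 86.1 and 302 in heart, 29.9 and 41.6 in spleen, 696.5 and 999 in kidney, and 146 and 197 in lung. Muscle, heart and brown adipose rose most, with log2 fold changes of 2.24, 1.81 and 1.35, whereas the liver pair differed by only 0.07. Across tissues the change was 1.0 (SE 0.23, edgeR adjusted p = 0.0416), the largest SE among the 7. The fasting muscle library, at 171 CPM, still lay below the fed kidney library at 696.5 CPM.

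Map1lc3b (ENSMUSG00000031812.16, chr8:121590361-121598760) encodes LC3B, the protein used most often as a marker of autophagosomes. Fed and fasting CPM were 111 and 179.8 in muscle, 70.5 and 125 in liver, 160.2 and 266 in white adipose, 139.9 and 351 in brown adipose, 176 and 314 in heart, 94.0 and 102 in spleen, 125 and 152 in kidney, and 157 and 213 in lung. The change was called in 5 tissues and smaller in spleen, kidney and lung. The fit gave 0.70 (SE 0.12, edgeR adjusted p = 0.0177). Its annotated exons share 58 bases with Zcchc14 on the other strand. The libraries keep strand, but the strand setting of the counting is not given in the sources used here.

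The other 3 Atg8 genes were not called across tissues. Map1lc3a, which encodes LC3A, had fed and fasting CPM of 89.4 and 106 in muscle, 24.3 and 40.1 in liver, 134 and 84.9 in white adipose, 141 and 158.5 in brown adipose, 340.0 and 332 in heart, 7.59 and 8.08 in spleen, 61.1 and 67.0 in kidney, and 60.2 and 59.6 in lung. It moved in opposite directions in liver (0.72) and white adipose (-0.66), and in heart, its highest tissue, the 2 libraries lay -0.03 apart. The fitted change was 0.12 (SE 0.14, edgeR adjusted p = 0.632). Gabarap itself had changes from -0.18 in kidney to 0.17 in liver and a fitted change of 0.08 (SE 0.06, edgeR adjusted p = 0.499). Gabarapl2 (GATE-16) gave 0.21 (SE 0.07, edgeR adjusted p = 0.113), with the widest difference, 0.40, in liver.

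Per deposited gene length, the sum of the 5 Atg8 genes was higher in the fasting library in all 8 tissues. In fed libraries this sum ran from 118 RPKM in spleen to 562 RPKM in kidney. The make-up of the sum differed by tissue. In fed liver and kidney Gabarapl1 held 61.6% and 61.5% of it, in fed heart Map1lc3a held 62.9%, and in fed spleen Gabarap held 58.6%. Map1lc3b held no more than 10.6% in any fed library. With fasting, the share of Gabarapl1 was higher in 7 tissues and lower in liver, and the share of Gabarap was lower in all 8. In muscle the share of Gabarapl1 went from 10.9% to 33.6%, in heart from 9.35% to 25.5%, and in brown adipose from 21.2% to 36.1%. In white adipose Map1lc3a went from 34.5% to 19.1% and Gabarapl1 from 26.8% to 41.6%. The lengths are those of genes and not of single transcripts, 7517 bases for Map1lc3b against 1181 to 2325 for the other Atg8 genes, and the shares depend on them. The shares have no replicate error and were not tested.

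**Figure D3:**
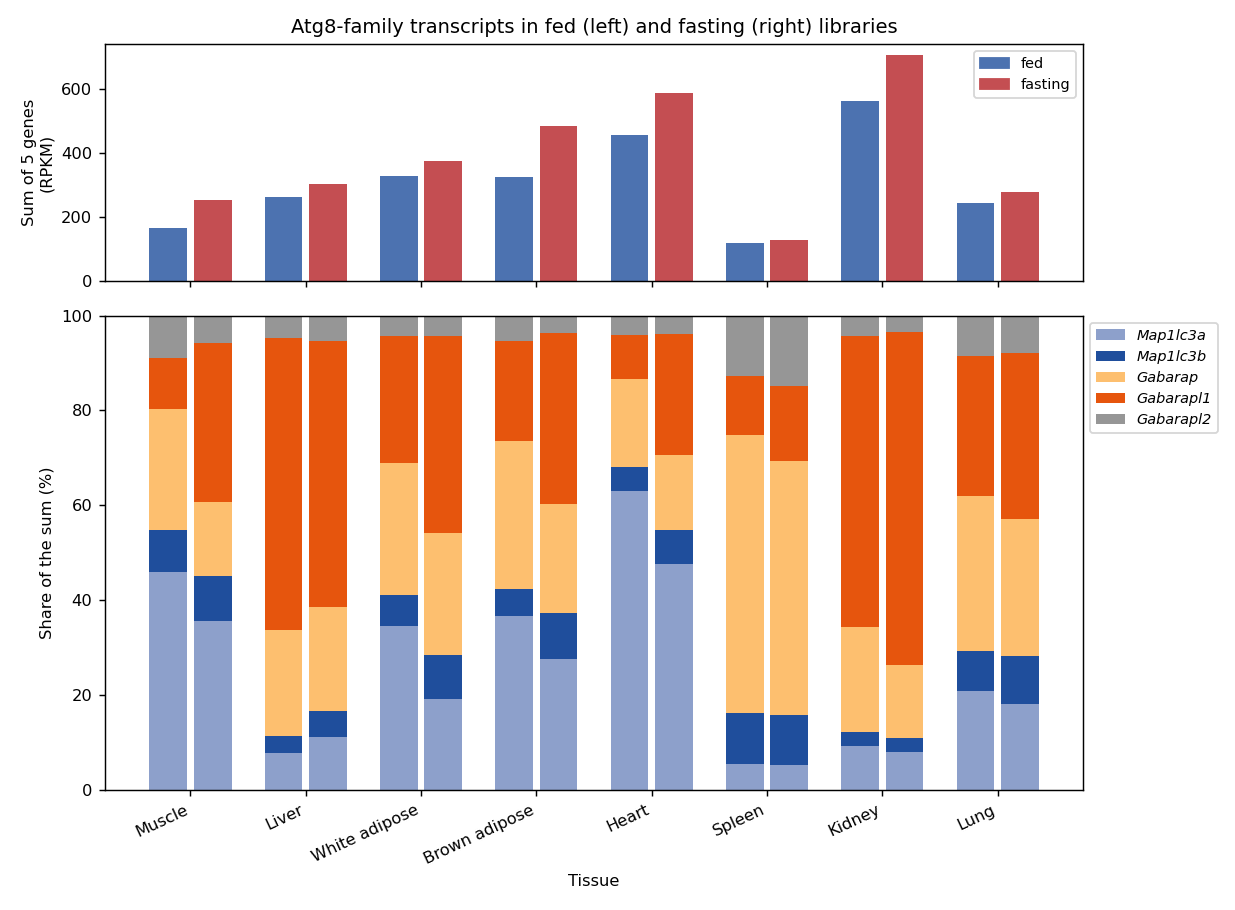
Summed RPKM of the 5 Atg8 genes (upper bars, y axis from 0) and the share of each gene in that sum in percent (lower bars) for the fed (left) and fasting (right) library of each tissue (x axis). The orange Gabarapl1 band widens with fasting in every tissue but liver, most in muscle, from 10.9% to 33.6%.

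Ahead of the Atg8 step, the initiation complex and the lipid and membrane genes held 1 call across tissues among 11 members. That call was Wipi1 (ENSMUSG00000041895.15, chr11:109573331-109611967), a reader of phosphatidylinositol 3-phosphate. Its fed and fasting CPM were 38 and 58.2 in muscle, 19.8 and 25.8 in liver, 49.2 and 58.5 in white adipose, 20.2 and 26.2 in brown adipose, 112 and 128 in heart, 10.6 and 12.8 in spleen, 41.0 and 56.8 in kidney, and 29.9 and 36.4 in lung. The pairs differed by 0.20 in heart to 0.62 in muscle, and the fit gave 0.40 (SE 0.07, edgeR adjusted p = 0.0177). Heart, the highest tissue, thus had the smallest change. Wipi2, its close relative, was not called across tissues at 0.28 (edgeR adjusted p = 0.115).

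Ulk1, the kinase that starts autophagy, had the largest fitted change of the members that were not called. Its fed and fasting CPM were 55.1 and 182 in muscle, 83.6 and 90.1 in liver, 58.6 and 84.1 in white adipose, 71.6 and 106 in brown adipose, 77.7 and 109.6 in heart, 38.3 and 41.5 in spleen, 63.5 and 77.6 in kidney, and 59.1 and 69.1 in lung. The muscle pair differed by 1.72, a 3.30-fold higher level, and no other tissue by more than 0.56. The fit across tissues gave 0.54 (SE 0.16) with an edgeR adjusted p of 0.082. DESeq2's Wald test gave an adjusted p of 0.0274, and without muscle edgeR gave 0.0438. Ulk2, the related kinase, went the other way in liver, from 131 to 72.9 CPM, the largest fall of any member there, and had a fitted change of -0.03 (edgeR adjusted p = 0.902). Within single tissues, Atg13, the regulatory subunit of the complex, rose in muscle (1.04) and heart (0.74), and Atg101 rose in brown adipose (0.82). Rb1cc1, the scaffold FIP200, was called in no tissue, with changes between 0.01 and 0.40.

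No member of the phosphatidylinositol 3-kinase complex was called across tissues. Becn1, which encodes Beclin 1, was the steadiest of the 5, with changes between -0.17 and 0.09 over the 8 tissues and a fitted change of 0.02 (SE 0.06). Atg14, the subunit that directs the complex to autophagy, came nearest at 0.41 (SE 0.11, edgeR adjusted p = 0.0569). It rose in muscle from 7.85 to 15.7 CPM and in brown adipose from 12.3 to 18.7 CPM. Uvrag rose in heart, from 34.6 to 50.3 CPM. The catalytic subunit Pik3c3 and its partner Pik3r4 were called in no tissue on library totals, while with TMM factors Pik3c3 passed in muscle, at 0.56.

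The conjugation machinery, the enzymes and proteases that load and trim Atg8 proteins, had no call across tissues among its 10 members, and 7 of the 10 had a fitted change below 0. The median was -0.03. Atg10, the E2-like enzyme for Atg12, gave -0.20 (SE 0.10, edgeR adjusted p = 0.243), the lowest of the 38. Atg4d, a protease of the Atg4 family, gave -0.19 (SE 0.09, edgeR adjusted p = 0.214), Atg5 gave -0.13 (0.361 in the same test) and Atg4c -0.07 (0.758). Atg5 was lower in the fasting library in 7 of 8 tissues, liver being the exception.

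Within single tissues, conjugation genes fell in 7 of 80 pairs (8.75%), next to 9.94% of all pairs of tissue and gene at 1 CPM or more. Of these 7 falls, 5 were in the 4 Atg4 proteases. The other 2 falls among the members were those of Ulk2 in liver and Map1lc3a in white adipose. Atg4d fell from 40.8 to 26.2 CPM in brown adipose and from 41.8 to 29.2 CPM in heart. Atg4c fell in muscle from 9.43 to 5.85 CPM and in liver from 14.0 to 9.61 CPM, and Atg4a in liver from 12.6 to 8.45 CPM. Atg10 fell in muscle from 8.43 to 5.04 CPM and Atg5 in heart from 23.2 to 15.8 CPM. No rise was called for any of the 10 in any tissue, next to rises in 7.93% of all such pairs.

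Scaling bears on these falls. On library totals the median gene at 1 CPM or more shifted by -0.14 in muscle and -0.13 in liver on the log2 scale. With TMM factors, which bring these medians to -0.05 and 0.00, the falls of Atg4a and Atg4c in liver (-0.58 and -0.54 on totals) became -0.45 and -0.42, and that of Atg4d in heart became -0.47, all short of the fold threshold, which left 4 of 80 pairs of the group as falls (5.0%, against 8.73% of all pairs of tissue and gene at 1 CPM or more). The rises of Ulk1, Sqstm1 and Nbr1 in white adipose, at 0.42, 0.49 and 0.43 with TMM factors, also fell short. TMM factors added 14 rises, among them Sqstm1 in liver and kidney and Tfeb in liver, and none in the conjugation group. The exons of Atg4d share 1405 bases with Kri1 on the other strand, whose counts came to 94.3% of those of Atg4d. If strand was not used in counting, reads of the 2 genes cannot be told apart.

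Members differed in the number of tissues in which they were called. Bnip3 was called in 7 tissues, Gabarapl1 and Map1lc3b in 5 each, Sqstm1 in 4 and Ulk1 in 3, while 14 members were called in none and 12 in a single tissue. Rises took 7.93% of all pairs of tissue and gene at 1 CPM or more. By role, cargo receptors rose in 16 of 40 pairs (40.0%) and Atg8 genes in 11 of 40 (27.5%). The initiation complex rose in 6 of 40 (15.0%), the lipid and membrane genes in 5 of 48 (10.4%) and the kinase complex in 3 of 40 (7.5%). With TMM factors, where rises took 8.66% of all such pairs, these shares were 42.5%, 37.5%, 15.0%, 18.8% and 10% in the same order, and the lipid and membrane genes went from 5 to 9 rises. Tfeb and Tfe3, transcription factors that drive autophagy and lysosome genes mainly through their location in the cell, were called in no tissue on library totals. Their fitted changes were -0.01 and -0.04 with edgeR adjusted p-values of 0.979 and 0.77.

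Tissues differed in which members led. In muscle 10 members rose, led by Gabarapl1 (2.24) and Ulk1 (1.72), and the rises included Atg13, Atg14, Atg2b, Wipi1 and Wipi2 from the early steps. In heart 6 rose, led by Bnip3 (2.15), Gabarapl1 (1.81) and Sqstm1 (1.53). Liver had 5 rises, with Bnip3 (1.36) ahead of Map1lc3b (0.82) and of Atg2a, a lipid transfer protein (0.56). White adipose had 8, among them Vmp1, a lipid scramblase, from 123 to 227 CPM. In that tissue Lrp2 went from 34.9 to 709.6 CPM, and the kidney tubule list that holds it from 67.2 to 747 CPM. Brown adipose also had 8, while its fast skeletal muscle list went from 2219.9 to 1039 CPM. On library totals spleen had a single rise, Bnip3l, kidney had Bnip3 and Gabarapl1, and lung had Bnip3. With TMM factors the number of rises went from 5 to 9 in liver, 8 to 5 in white adipose, 1 to 2 in spleen, 2 to 4 in kidney and 1 to 3 in lung, where Map1lc3b (0.52) and Gabarapl1 (0.51) were added. In lung the cardiomyocyte list went from 1006 to 520.3 CPM, the B cell list from 343 to 177 CPM and the T cell list from 51.9 to 16.1 CPM. In heart the hepatocyte list went from 23.5 to 84.9 CPM. The adipocyte list of heart went from 374 to 832 CPM through Fabp4 alone, with Plin1, Cfd and Adipoq lower in the fasting library and Lep at 0 in both. The part of these cells in the rises was not tested.

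**Figure D4:**
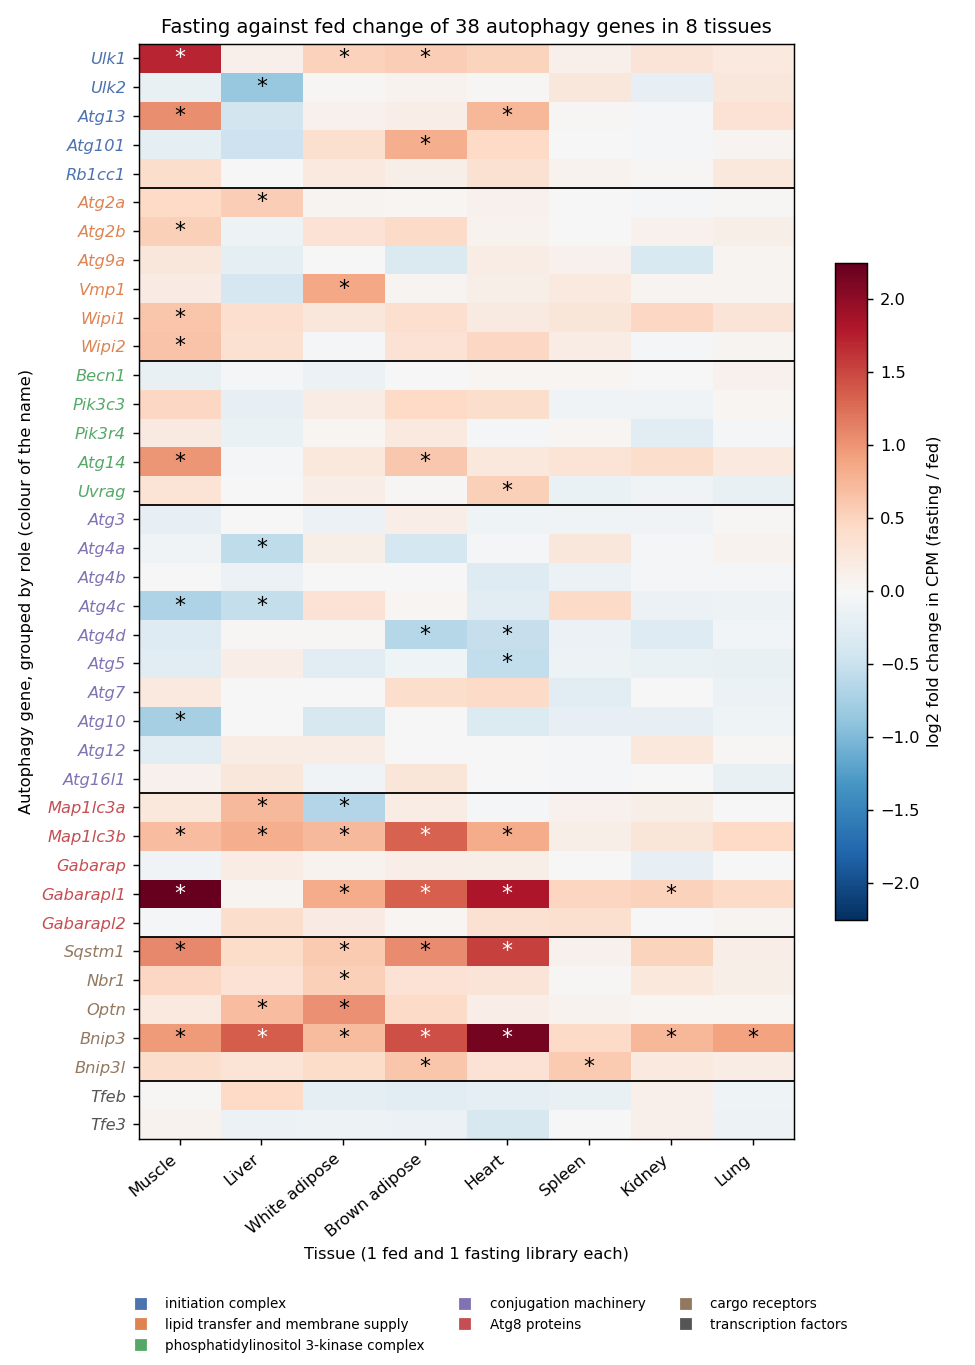
Log2 fold change in CPM between the fasting and the fed library (colour, red for higher with fasting) of the 38 autophagy genes (rows, grouped by role) in 8 tissues (columns). Asterisks mark the 50 pairs past the fold and Fisher thresholds. Of the 41 red cells with an asterisk, 16 lie in the cargo receptor rows and 11 in the Atg8 rows, and 7 of the 9 blue cells with an asterisk lie in the conjugation rows.

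To ask whether striated muscle responded differently, the change in muscle and heart was set against that in the other 6 tissues as an interaction in edgeR. No member passed at an adjusted p under 0.05, and the test called none of the 17296 genes (0.0%). On simulated counts, this test recovered 22 of 100 genes with a log2 difference of 1 and 94 of 100 with 2. Differences near 1 could thus go uncalled. At an unadjusted p under 0.05, 8 of 38 members passed, against 8.4% of all genes. DESeq2's Wald test called 3 members, Gabarapl1, Atg13 and Uvrag, and 0.819% of the genes to which it gave an adjusted p. Gabarapl1 had a mean log2 fold change of 2.03 in the striated tissues and 0.61 in the others, with a fitted difference of 1.45 (SE 0.29). The edgeR adjusted p was 0.244 and that of DESeq2 6.52e-04. Atg13 had means of 0.89 and 0.03 and a difference of 0.90 (SE 0.19), with adjusted p-values of 0.272 in edgeR and 0.00674 in DESeq2. Sqstm1, with means of 1.31 and 0.47, had a difference of 0.88 (SE 0.26) and adjusted p-values of 0.433 in edgeR and 0.0704 in DESeq2.

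The same contrast of white and brown adipose with the other 6 tissues called no member, although it called 0.763% of all genes. It passed 1 member, Atg101, at an unadjusted p under 0.05, against 11.6% of all genes, and DESeq2 called none, with 2.21% of genes called.

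Levels also differed between tissues. Over the 8 tissues, 37 of 38 members differed in edgeR's test of all tissue coefficients, in which 96.8% of all genes did. Pik3c3 was the exception, with an edgeR adjusted p of 0.223. Its levels were not flat, with fed and fasting CPM of 69.1 and 65.7 in spleen against 18.9 and 26.2 in muscle. Both spleen libraries lay above all others for this gene. The ratio between the highest and the lowest tissue, on the mean CPM of both libraries, had a median of 2.98 and was under 3 for 20 members. It was over 10 for 6 members, at 51.8 for Bnip3, 42.9 for Map1lc3a, 23.7 for Gabarapl1, 11.5 for Uvrag, 10.3 for Tfeb and 10.2 for Wipi1. In 18 members both libraries of the highest tissue lay above the other 14 libraries, as they did in 69.1% of all genes tested.

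Named by tissue, muscle was the lowest for 18 members and the highest for 4, whereas spleen was the highest for 9 and the lowest for 8. These ranks rest on CPM over library totals, and the same ranks over all genes are not given here. The 5 genes of the fast skeletal muscle list alone took 131230 and 130180 CPM of the fed and fasting muscle libraries. The part of library make-up in the ranks was not tested. Spleen was lowest for Bnip3, Map1lc3a, Gabarapl1, Sqstm1, Optn, Wipi1, Ulk1 and Atg9a. It was highest for Uvrag, at 209.9 and 189 CPM fed and fasting, and for Tfeb, at 95.8 and 85.7 CPM, as well as for Becn1 and Pik3r4. Bnip3 was high in both adipose tissues. The fed and fasting values of white adipose (412 and 675 CPM) and brown adipose (331 and 908 CPM) overlapped each other and those of heart, and spleen lay below every other library. Map1lc3a was ordered from heart, at 340.0 and 332 CPM, down to spleen, at 7.59 and 8.08 CPM, and both ends stood clear of the other libraries. Per deposited gene length, the median fed level of a member over tissues ran from 3.62 RPKM for Tfe3 to 95.6 RPKM for Sqstm1.

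**Figure D5:**
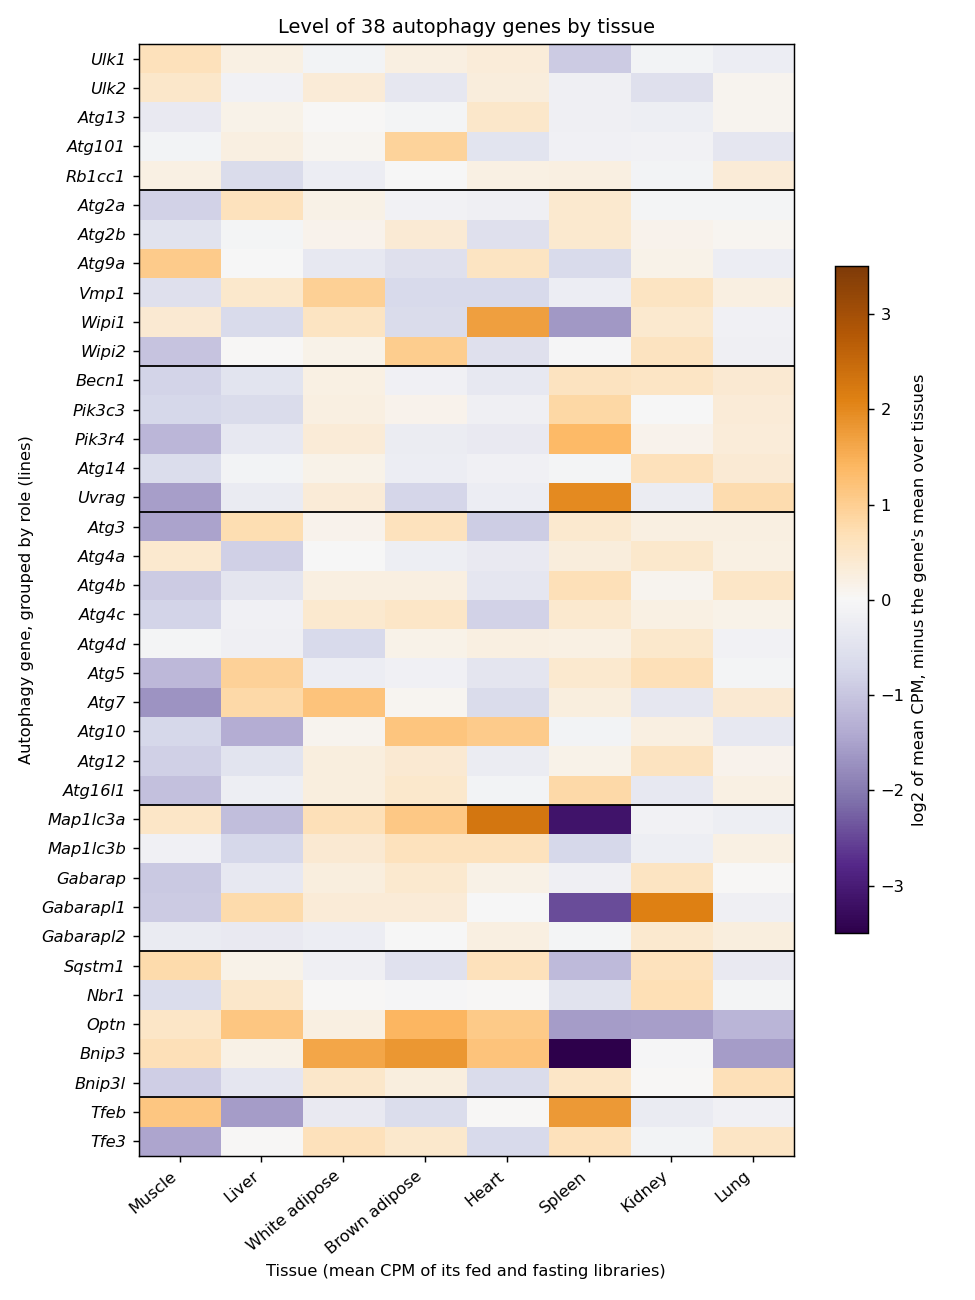
Level of the 38 autophagy genes (rows, grouped by role) in 8 tissues (columns), as the log2 of the mean CPM of both libraries minus the mean of that gene over tissues (colour). Spleen is darkest purple for Bnip3 and Map1lc3a, heart is darkest orange for Map1lc3a, and kidney for Gabarapl1.

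Beyond the 38 members, 5 lists of other genes of the pathway were read from the same fit across tissues, with 137 genes tested. That fit called 4.39% of all genes, 2.31% as rises, and the counts of the lists are a description with no test. Of 23 further core and regulatory genes, 2 rose and 1 fell. Bcl2l1, an inhibitor of Beclin 1, rose by 0.84 (SE 0.18), Wdr45, a relative of Wipi1, rose by 0.50 (SE 0.11), and Tmem41b, a lipid scramblase like Vmp1, fell by 0.31 (SE 0.07). Of 21 further genes of selective autophagy, 3 rose, among them the reticulophagy receptors Retreg1 (1.25, SE 0.29) and Calcoco1 (0.51, SE 0.08). Of 40 lysosome genes, 4 rose, with Npc1 (0.77, SE 0.19), Ctsl (0.66, SE 0.14) and Ctsf (0.64, SE 0.09) ahead. Of 34 regulators around mTORC1, AMPK and FoxO, Foxo3 (0.88, SE 0.16) and Sesn2 (0.65, SE 0.16) rose. None of 19 genes of autophagosome fusion was called. The medians of the lists lay between 0.03 and 0.16, against -0.01 over all genes tested. The edgeR adjusted p-values of the genes named here ran from 0.00871 for Ctsf to 0.0494 for Sesn2. Fewer genes of the lists were called without both adipose tissues or with some single tissues left out, with counts given at the end.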

How the data were processed

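Short-read RNA-Seq of 8 tissues under fed and fasting conditions was analysed, with groups taken from the sample labels. The authors prepared strand-specific libraries, sequenced pairs of 100 bases, used fastp 0.23.2 for trimming, FastQC 0.11.8 for quality and HISAT2 2.2.1.0 for alignment to GRCm38, and ran featureCounts (subread 2.0) on GENCODE vM24. The authors deposited the raw counts of each gene, with no normalization, and its length (an other value, not a measurement). Whether reads or pairs were counted, and the strand setting, are not given in the sources used here. Symbols were matched by identifier through an older GENCODE release of the same build, which named 55144 of 55385 genes.

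CPM was the count over the total of its library, and RPKM was CPM over gene length. Within a tissue, the log2 fold change used a pseudocount of 0.01 CPM, and Fisher's exact test followed the study's methods, with all genes that had a count. With 14245178 to 36069968 counts per library, 3 counts correspond to 0.0832 to 0.211 CPM, and intervals would cover counting error only. Across tissues, edgeR 4.0.16 in R 4.3.3 was run with TMM, filterByExpr on treatment, a tissue block (7 residual degrees of freedom, common coefficient of variation 0.1956) and Benjamini-Hochberg adjustment over 17296 genes. Both tests were tried on simulated data first. DESeq2 1.42.0, scalings, filters, stricter thresholds and tissues left out were alternatives. The rest ran in Python 3.11.15 with scipy 1.17.1, pandas 2.3.3, numpy 2.4.6 and matplotlib 3.10.9.

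The members and the lists were chosen with earlier results of these data known. Genes named are those called across tissues, the 5 largest changes each way, the largest rise and fall per tissue at 10 CPM or more, members called in an interaction, all Atg8 genes and cargo receptors, and up to 3 called genes of a list. A called gene of the selective autophagy list is not reported here. Further members called in a single tissue, and those named for level, were named after their values were seen. In muscle, spleen, kidney and lung the largest fall among members at 10 CPM or more was not called, at -0.29 for Atg4d, -0.25 for Atg7, -0.34 for Atg9a and -0.17 for Atg16l1.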

Additional observations from a re-analysis of the deposited data

Results flagged for a closer look

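Map1lc3a, which encodes LC3A, was the only member called in opposite directions in 2 tissues. Its log2 fold change was 0.72 in liver, from 24.3 to 40.1 CPM, and -0.66 in white adipose, from 134 to 84.9 CPM. The difference between the 2 tissues was not tested, since each has 1 library per treatment. In the same white adipose pair the B cell marker list went from 346 to 82.7 CPM, mainly through Ighm, and the kidney tubule list from 67.2 to 747 CPM, mainly through Lrp2, and their part in the value was not tested.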

How the results depend on the processing

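The 41 rises and 9 falls within tissues kept to within 1.5 times under another pseudocount, scaling, library size or filter and with adjusted p-values. TMM factors gave 52 rises and 6 falls. A log2 fold change above 1 left 13 rises and 0 falls. With a coefficient of variation of 0.2 assumed between mice, the exact test of edgeR left 10 rises and 0 falls, and with 0.4 it left 0 and 0. For the stricter fold threshold and the assumed spreads, the share of all genes called is not given here. Those counts thus have no background beside them. Among 672 values of named members under another scaling or pseudocount, 33 changed sign, none of them called. Among the same values, 11 calls were lost and 20 gained.

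Across tissues, the 7 called members (4.39% of all genes called) became 11 with DESeq2's Wald test (11.3%), which added Ulk1, Rb1cc1, Atg14 and Optn, 3 without both adipose tissues (0.757%), and 3 to 7 with 1 tissue left out (0.891% to 4.21%). Without the tissue block the count was 0 in edgeR (0.00578%), and 2 at an unadjusted p under 0.05 (0.769%). For the difference between striated muscle and other tissues, DESeq2 called 3 members where edgeR called 0. Levels differed among tissues in 34 to 37 members with 1 tissue left out, where 96.8% of all genes differed with no tissue left out.

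The 12 called genes of the other lists (4.39% of all genes called) became 29 with DESeq2's Wald test (11.3%) and 2 without both adipose tissues (0.757%). The count was 6 without liver, white adipose and spleen (2.74%), an alternative chosen after seeing the data. With 1 tissue left out it was 3 to 12 (0.891% to 4.21%). Without the tissue block the count was 0 (0.00578%), and 4 at an unadjusted p under 0.05 (0.769%). Why these counts moved was not tested. The design has no biological replicate, so spread between mice is unknown.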
